A study of Homo sapiens with 12 samples.

Results

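The cyclin-dependent kinase inhibitor genes CDKN1A, CDKN1B, CDKN1C, CDKN2A, CDKN2B, CDKN2C, CDKN2D and CDKN3 were followed in OPM-1, an established human multiple myeloma cell line. These 8 genes were taken by name from the 38478 genes of the expression table. The cells had been kept for 48 h with the solvent DMSO alone, with 0.1 μM lenalidomide (LEN, a drug that directs the cereblon ubiquitin ligase to the transcription factors IKZF1 and IKZF3), with 1 μM AI-10-104 (an inhibitor of the RUNX transcription factors), or with LEN and AI-10-104 together (LEN+AI-10-104). Polyadenylated RNA of 3 biological replicates per condition was sequenced, giving 12 samples of a single cell line. Levels are in RPKM, reads per kilobase of gene length, scaled to the number of reads on genes in the sample. The reads on genes came to between 16352548 and 31386210 per sample, with the fewest in LEN+AI-10-104 (16352548 to 20419807).

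The 8 plasma cell markers SDC1, TNFRSF17, XBP1, PRDM1, IRF4, CD38, MZB1 and SLAMF7 each had a mean over all 12 samples of 22.9 RPKM or more. SLAMF7, the lowest of them, was at 19.3 ± 1.21 RPKM in DMSO and 31.1 ± 1.6 RPKM in AI-10-104 (SD, n = 3 each). Their summed level was 1484 to 1539 RPKM in AI-10-104 and 1239 to 1378 RPKM in the other conditions. Of 11 markers of other blood cells, 7 had at most 3 reads in every sample and only the haemoglobin gene HBB passed the filter on low values, at 18.2 to 22.9 RPKM. Within conditions, replicates varied beyond the counting error of reads (chi-square per degree of freedom 1.88 to 9.64). By chi-square, AI-10-104 replicate 2 stood apart in its condition, with 7.40 and 9.64 in its pairs and 2.82 between replicates 1 and 3. The other conditions held a similar pattern at lower values. LEN+AI-10-104 replicate 3 had 5.10 and 5.69 in its pairs, against 1.88 between replicates 1 and 2. DMSO replicate 1 had 4.43 and 6.52, against 2.77, and LEN replicate 2 had 3.93 and 5.05, against 2.37. AI-10-104 replicate 2 also had the most reads on genes of its condition (29512562). The root mean square log2 difference was 0.297 and 0.311 in its pairs and 0.279 between replicates 1 and 3. Pairs of the other conditions had 0.263 to 0.333, so this measure did not single it out. Because of the chi-square, results resting on AI-10-104 are given with and without replicate 2 where called or near a call. This holds for the inhibitor genes and for the named neighbours and pathway genes, except CKS1B. The part of the marker levels and of this replicate in the results was not tested beyond that.

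Cyclin-dependent kinases drive the cell cycle once a cyclin binds them, and the inhibitors hold them back. The CIP/KIP inhibitors CDKN1A (p21), CDKN1B (p27) and CDKN1C (p57) bind cyclin and kinase together, whereas the INK4 inhibitors CDKN2A (p16), CDKN2B (p15), CDKN2C (p18) and CDKN2D (p19) bind CDK4 and CDK6 and keep the retinoblastoma protein RB1 active. CDKN2A also encodes ARF, which restrains the ubiquitin ligase MDM2, and CDKN3 is a phosphatase that removes an activating phosphate from kinases such as CDK2. Loss or silencing of INK4 genes and of RB1 is a common event in myeloma, and CDKN1A is commonly induced in stressed cells.

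The windows upstream of the start sites are shown for the 4 members called in some comparison and for CDKN1B, since AI-10-104 acts on RUNX proteins, which bind DNA themselves. They are RefSeq sequences of GRCh38 and run 5′ to 3′ toward the start site, with GC boxes (GGGCGG or its complement CCGCCC) and CCAAT boxes (CCAAT or its complement ATTGG) in capitals. CDKN2A has a start site for ARF and, 20467 bases downstream, another for p16, and both windows are given. Bases that an exon of the same gene covers are left out, 80 of them for CDKN2D.
CDKN2A, ARF start, minus strand of chr9:21995325-21995574: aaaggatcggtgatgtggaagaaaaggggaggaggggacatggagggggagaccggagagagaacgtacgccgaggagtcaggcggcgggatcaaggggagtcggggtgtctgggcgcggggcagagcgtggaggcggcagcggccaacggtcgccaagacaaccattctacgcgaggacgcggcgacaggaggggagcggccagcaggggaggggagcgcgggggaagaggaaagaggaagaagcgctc
CDKN2A, p16 start, minus strand of chr9:21974867-21975107: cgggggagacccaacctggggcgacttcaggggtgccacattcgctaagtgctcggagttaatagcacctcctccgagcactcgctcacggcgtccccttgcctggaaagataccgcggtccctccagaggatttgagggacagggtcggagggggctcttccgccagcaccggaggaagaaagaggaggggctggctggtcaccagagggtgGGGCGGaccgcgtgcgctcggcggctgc
CDKN2B, minus strand of chr9:22009306-22009555: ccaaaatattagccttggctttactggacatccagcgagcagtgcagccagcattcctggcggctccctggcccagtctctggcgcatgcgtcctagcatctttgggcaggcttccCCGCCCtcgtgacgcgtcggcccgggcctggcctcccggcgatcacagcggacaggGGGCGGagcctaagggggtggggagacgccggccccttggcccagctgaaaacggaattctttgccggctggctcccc
CDKN2D, minus strand of chr19:10569060-10569229: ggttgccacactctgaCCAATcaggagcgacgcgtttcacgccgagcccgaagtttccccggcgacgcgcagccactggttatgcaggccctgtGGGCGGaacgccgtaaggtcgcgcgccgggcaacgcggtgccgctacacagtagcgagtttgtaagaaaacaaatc
CDKN1B, plus strand of chr12:12717118-12717367: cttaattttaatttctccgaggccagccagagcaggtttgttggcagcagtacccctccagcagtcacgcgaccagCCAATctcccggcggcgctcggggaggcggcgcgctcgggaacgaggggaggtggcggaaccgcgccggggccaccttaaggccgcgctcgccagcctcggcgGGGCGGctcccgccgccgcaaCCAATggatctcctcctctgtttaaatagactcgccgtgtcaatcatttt
CDKN1A, plus strand of chr6:36678464-36678709: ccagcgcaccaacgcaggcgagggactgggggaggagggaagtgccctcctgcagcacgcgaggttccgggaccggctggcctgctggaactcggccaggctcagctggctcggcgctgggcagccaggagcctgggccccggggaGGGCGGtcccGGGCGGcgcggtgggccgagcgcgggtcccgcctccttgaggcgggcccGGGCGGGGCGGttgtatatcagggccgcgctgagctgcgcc

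Over the full 250 bases, 10 windows were at hand for 7 of the 8 members. A GC box, the site bound by SP1, was in 7 of the 10 windows. It was in 42.6% of all 35116 windows of the same length upstream of start sites, these 10 included. A CCAAT box, the site of NF-Y, was in 4 of the 10 and in 32.0% of all windows. For RUNX only the letters TGTGGT and TGCGGT were searched, on both strands. They were in 0 of the 10 windows and in 16.3% of all windows. Other spellings of the site were not counted. The letters CGCGGT or their complement ACCGCG stand in the printed windows of CDKN1A, CDKN1B, CDKN2D and the p16 start of CDKN2A. CDKN1A held 4 GC boxes and no CCAAT box, CDKN1B held 1 GC box and 2 CCAAT boxes, and the ARF window of CDKN2A held neither. The GC and CCAAT boxes did not overlap. These counts describe letters in short windows, and the binding of a factor was not measured here.

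In GENCODE 44 (GRCh38), CDKN1A spans 36676460 to 36687337 on chromosome 6, CDKN1B 12685498 to 12722369 on chromosome 12 and CDKN3 54396849 to 54420218 on chromosome 14, all on the plus strand, and CDKN2D spans 10566460 to 10569059 on the minus strand of chromosome 19. By level, CDKN1B, CDKN2A and CDKN3 were the abundant members. In DMSO their mean was 63.8 ± 1.94, 53.5 ± 2.07 and 34.8 ± 1.26 RPKM (SD, n = 3 each), which placed them at ranks 1043, 1278 and 1987 of the genes in the table. CDKN2B at 5.28 ± 0.627 RPKM and CDKN2D at 4.31 ± 0.287 RPKM (SD, n = 3 each) were about an order lower, at ranks 6850 and 7349. CDKN1A was low, at 0.758 ± 0.0951 RPKM (SD, n = 3) and rank 10476. CDKN1C and CDKN2C were listed at 0 reads in all 12 samples. The 6 members with reads passed the filter of a mean of 0.5 RPKM and entered the test, which covered 11241 genes in all. The plot of levels by sample shows these 6 genes.

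**Figure D1:**
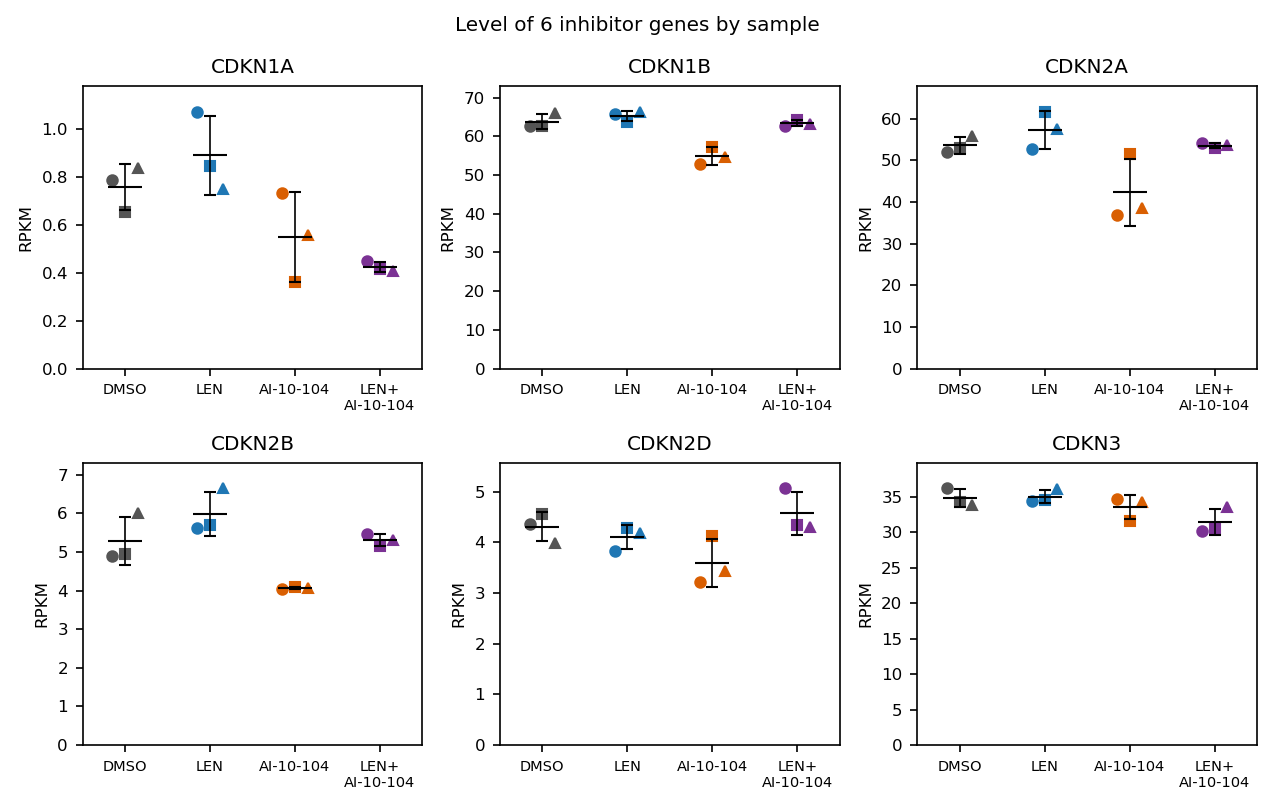
Level in RPKM (vertical axis, from 0) of the 6 inhibitor genes with reads, by condition (horizontal axis). Circles, squares and triangles are replicates 1, 2 and 3, the long bar is the mean and the whiskers are the SD over 3 samples. CDKN2B in AI-10-104 sits between 4.04 and 4.08 RPKM, below all DMSO samples, and CDKN1A is lowest on average in LEN+AI-10-104 at 0.409 to 0.449 RPKM.

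Differences were tested with limma on log2(RPKM + 0.1), with all 12 samples in a single model and Benjamini-Hochberg adjustment over the 11241 genes. A gene was called at an adjusted p of 0.05 or less and a log2 fold change of at least 0.32 in size. Since the samples are a bulk culture, fewer cells expressing a gene and less of its RNA per cell cannot be told apart. The comparisons share samples, so their values are given side by side and not as independent results.

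No inhibitor gene was called with LEN alone. With LEN, 0 of the 6 tested members were called, against 0.649% of all genes tested, and voom on the reads called none of them either. CDKN2B had the smallest p among them. It was at 4.89, 4.93 and 6.0 RPKM in the DMSO replicates and 5.63, 5.69 and 6.65 RPKM in the LEN replicates, so the ranges overlapped. Its log2 fold change was 0.18 (SE 0.08, adjusted p = 0.444 in limma). CDKN2B was the 1 member whose unadjusted p was under 0.05. CDKN1A, at 0.653 to 0.837 RPKM in DMSO and 0.751 to 1.07 RPKM in LEN, had the widest 95% interval of the difference, from -0.25 to 0.65 on the log2 scale. The interval for CDKN1B ran from -0.04 to 0.11, and that for CDKN3 from -0.10 to 0.12.

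AI-10-104 alone lowered CDKN2B. CDKN2B encodes p15, the INK4 inhibitor that TGF-beta signalling induces. It was at 4.04, 4.08 and 4.05 RPKM in the AI-10-104 replicates, resting on 367 to 480 reads per sample, below each of the DMSO replicates. The log2 fold change was -0.36 (SE 0.08, adjusted p = 0.0283 in limma), or 0.777 of the DMSO level. It was the 1 of 6 members called lower, against 1.09% of all genes tested called lower and 1.77% called in either direction. The call was lost with a pseudocount of 1, with no filter on low values and in a model of the compared conditions only, and without DMSO replicate 3 (log2 fold change -0.27), AI-10-104 replicate 1 (-0.36) or AI-10-104 replicate 3 (-0.36).

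CDKN2A, which lies next to CDKN2B on chromosome 9, was lower in some AI-10-104 replicates than in others. Its level was 51.9, 52.8 and 55.9 RPKM in the DMSO replicates and 36.8, 51.5 and 38.5 RPKM in the AI-10-104 replicates. Replicates 1 and 3 were well under every DMSO sample, and replicate 2 was just under the lowest of them. The log2 fold change of -0.36 (SE 0.10) missed the threshold with all samples (adjusted p = 0.0721 in limma), whereas voom on the reads of all samples called it (-0.35, adjusted p = 0.00561). Without AI-10-104 replicate 2 it was -0.51 (SE 0.06, adjusted p = 0.000539 in limma) and was called. The p16 and ARF transcripts share a single value in the table, so which of them was lower could not be read from it.

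CDKN2D, whose protein p19 is a further INK4 inhibitor, had the same order of replicates. It was at 4.37, 4.56 and 3.99 RPKM in the DMSO replicates and 3.21, 4.12 and 3.43 RPKM in the AI-10-104 replicates, with 104 to 173 reads in the latter. AI-10-104 replicate 2 fell within the DMSO range and the others were below it. CDKN2D had a log2 fold change of -0.26 (SE 0.09, adjusted p = 0.137 in limma) with all samples and -0.36 (SE 0.09, adjusted p = 0.02 in limma) without that replicate. CDKN2A, CDKN2B and CDKN2D were thus the 3 members called lower when AI-10-104 replicate 2 was left out, in a fit that called 2.66% of all genes tested lower.

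The CIP/KIP genes and CDKN3 were not called with AI-10-104. CDKN1B, whose product p27 holds back cyclin E with CDK2, was at 62.6, 62.7 and 66.0 RPKM in DMSO and 52.8, 57.3 and 54.7 RPKM in AI-10-104. All 3 treated samples lay below all 3 DMSO samples, and the adjusted p of 0.0071 in limma passed, but the log2 fold change of -0.21 (SE 0.04) was smaller than the threshold of 0.32. Without AI-10-104 replicate 2 it was -0.25, still under that threshold. CDKN1A was at 0.785, 0.653 and 0.837 RPKM in DMSO and at 0.732, 0.360 and 0.557 RPKM in AI-10-104. The replicates of AI-10-104 thus spread widely, here with replicate 2 lowest, and the log2 fold change of -0.44 (SE 0.21, adjusted p = 0.24 in limma) was not called. Without replicate 2 it was -0.21. CDKN3 had a log2 fold change of -0.05 (95% interval -0.16 to 0.05), and of -0.01 without replicate 2.

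**Figure D2:**
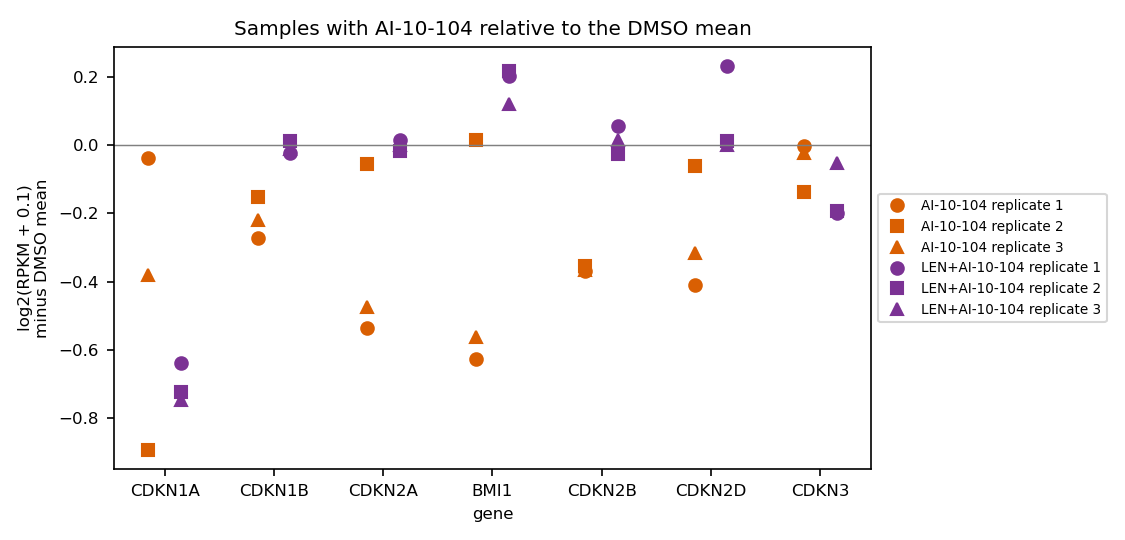
Difference of each sample with AI-10-104 from the DMSO mean, in log2(RPKM + 0.1) (vertical axis), for the 6 inhibitor genes with reads and for BMI1 (horizontal axis). Orange points are AI-10-104 and purple points LEN+AI-10-104, with circles, squares and triangles for replicates 1, 2 and 3. For CDKN2A, BMI1 and CDKN2D the square of AI-10-104 (-0.05, 0.02 and -0.06) lies far above the circle and the triangle, and for CDKN1A it lies lowest at -0.89.

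With both drugs, the INK4 genes were near their DMSO level. In LEN+AI-10-104, CDKN2A was at 54.0, 52.9 and 53.6 RPKM, CDKN2B at 5.47, 5.16 and 5.31 RPKM, and CDKN2D at 5.07, 4.34 and 4.30 RPKM. Each of the 3 genes overlapped the DMSO samples and had a log2 fold change against DMSO of 0.08 or less in size. Their 95% intervals ran from -0.22 to 0.22 for CDKN2A, from -0.16 to 0.19 for CDKN2B and from -0.13 to 0.29 for CDKN2D. Against DMSO, 0 of the 6 members were called, against 2.94% of all genes tested. CDKN3, at 30.2, 30.4 and 33.5 RPKM, lay just below the lowest DMSO sample (33.8 RPKM), with a log2 fold change of -0.15 (SE 0.05, adjusted p = 0.0925 in limma).

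Set against AI-10-104 alone, the combination had higher INK4 levels. CDKN2A, CDKN2B and CDKN2D were called higher, 3 of the 6 members, against 3.16% of all genes tested called higher and 3.63% called in either direction. For each of them all 3 combination samples lay above all 3 AI-10-104 samples. How many of all genes did so was not counted, and 3729 of them had an unadjusted p under 0.05 in this comparison. Their log2 fold changes were 0.35 for CDKN2A (SE 0.10, adjusted p = 0.0381 in limma), 0.38 for CDKN2B (SE 0.08, adjusted p = 0.0135) and 0.35 for CDKN2D (SE 0.09, adjusted p = 0.0326). Without AI-10-104 replicate 2 these values were 0.50, 0.38 and 0.45, all called, in a fit that called 5.9% of all genes tested higher. CDKN1B did not overlap either, with a log2 fold change of 0.21 (SE 0.04, adjusted p = 0.00628 in limma) that was below the fold threshold. Of 10 other settings, the call held in 7 for CDKN2A, in 9 for CDKN2B and in 5 for CDKN2D. When each of the 12 samples was left out in turn it held for 5, 10 and 8 of them.

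The call for CDKN2A was lost without DMSO replicate 2, LEN replicate 3, AI-10-104 replicate 1 or 3, or any of the combination replicates, with log2 fold changes of 0.26 to 0.36. For CDKN2B it was lost without AI-10-104 replicate 1 (0.38) or combination replicate 1 (0.36). For CDKN2D it was lost without AI-10-104 replicate 1 (0.27) or 3 (0.32), or combination replicate 1 (0.27) or 2 (0.38). In each of these fits the direction stayed the same, and CDKN2A had its highest adjusted p, 0.149 in limma, without AI-10-104 replicate 1.

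CDKN1A was lowest on average in the combination, but its lowest single value was 0.360 RPKM, in AI-10-104 replicate 2. The combination overlapped AI-10-104 alone, and the log2 fold change of -0.27 between them (SE 0.21, adjusted p = 0.39 in limma) was not called. Without AI-10-104 replicate 2 it was -0.49, also not called. CDKN1A was at 1.07, 0.846 and 0.751 RPKM in the LEN replicates and at 0.449, 0.417 and 0.409 RPKM in the LEN+AI-10-104 replicates. LEN and the combination did not overlap. The 18 to 23 reads per combination sample compare with 55 to 68 reads in LEN, but depth differed. Reads on genes came to 16352548 to 20419807 in the combination and 19442512 to 30478783 in LEN. The log2 fold change of the combination against LEN was -0.90 (SE 0.21, adjusted p = 0.0295 in limma), or 0.535 of the LEN level on the log2(RPKM + 0.1) scale. It was the 1 of 6 members called lower, against 0.81% of all genes tested called lower and 1.68% called in either direction. Against DMSO the log2 fold change was -0.70 (SE 0.21, adjusted p = 0.0562 in limma), with no overlap. It was called against DMSO by voom (adjusted p = 0.047), with median-ratio rescaling (0.0488), in a model of the compared conditions only (0.0443), and without AI-10-104 replicate 1 (0.0391) or 2 (0.0211). CDKN1A rested on few reads. Its call against LEN was lost when any of the 3 LEN samples or any of the 3 combination samples was left out, with log2 fold changes of -1.01 to -0.77. With a pseudocount of 1 RPKM the log2 fold change shrank to -0.40.

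**Figure D3:**
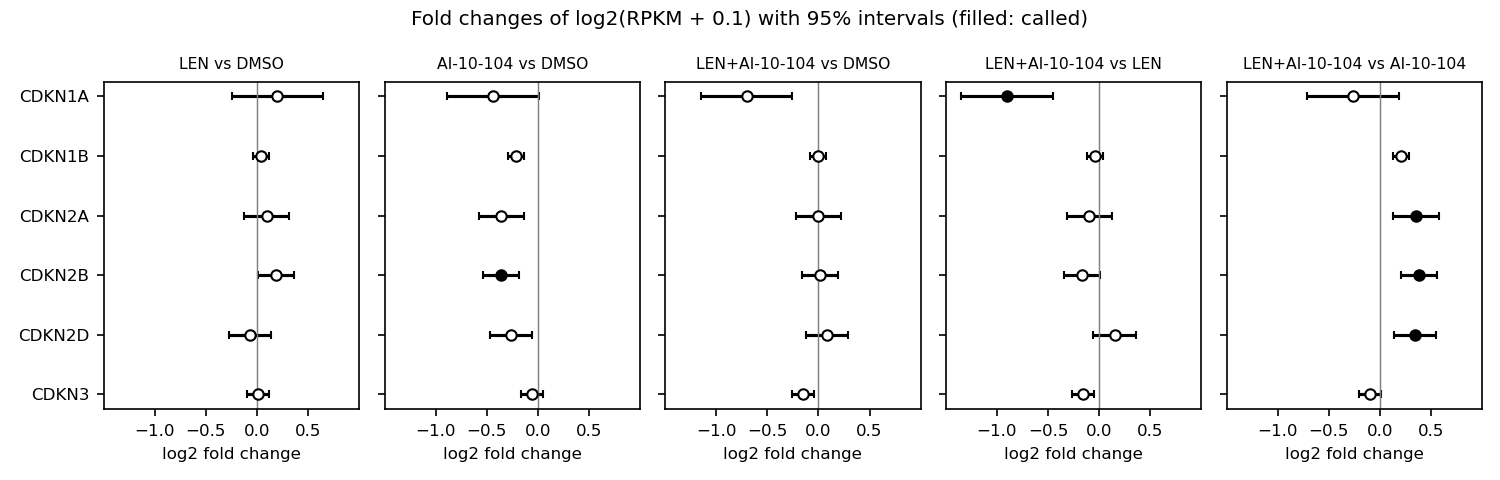
Log2 fold change of log2(RPKM + 0.1) (horizontal axis) with its 95% interval for the 6 tested inhibitor genes (rows) in 5 comparisons (panels). Filled points were called. CDKN1A is called in LEN+AI-10-104 against LEN at -0.90, CDKN2B in AI-10-104 against DMSO at -0.36, and CDKN2A, CDKN2B and CDKN2D in LEN+AI-10-104 against AI-10-104 at 0.35 to 0.38.

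Whether the change with LEN differed in the presence of AI-10-104 was asked with the interaction term of the model. With all 12 samples, 0 of the 6 members were called, and so were 0% of all genes tested in limma. Without adjustment, 1621 of all genes had a p under 0.05, among them CDKN1B (interaction 0.17, SE 0.05, adjusted p = 0.278 in limma) and CDKN2D (0.41, SE 0.13, adjusted p = 0.281), and voom on the reads called 3 genes. Without AI-10-104 replicate 2, CDKN1B (0.20, adjusted p = 0.0366 in limma), CDKN2A (0.41, adjusted p = 0.0215) and CDKN2D (0.52, adjusted p = 0.0326) were called. That fit called 4.95% of all genes tested, 557 genes, whereas leaving out any of the other 11 samples gave 0 to 2 genes. The interaction of the inhibitor genes thus rested on whether this sample was in the model.

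In order of mean level, LEN stood first and AI-10-104 last for CDKN1B, CDKN2A and CDKN2B. For CDKN1B and CDKN2A, LEN overlapped DMSO and DMSO overlapped the combination, and the step down to AI-10-104 had no overlap. For CDKN2B, DMSO overlapped both LEN and the combination, while LEN did not overlap the combination and no other condition overlapped AI-10-104. CDKN2D ran from LEN+AI-10-104 through DMSO and LEN to AI-10-104, with overlap at each step. CDKN1A and CDKN3 ran from LEN through DMSO and AI-10-104 to LEN+AI-10-104, again with overlap at each step. The share of all genes with such steps without overlap was not counted. Over the 6 tested members, the median log2 fold change was -0.31 with AI-10-104 against DMSO, where it was 0.01 over all genes tested, and 0.28 in the combination against AI-10-104, where it was 0.02 over all genes.

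CDKN2C and CDKN1C were listed at 0, and the genes around them were looked at in turn. CDKN2C (chromosome 1, 50960745 to 50974634, GRCh38, GENCODE 44), a gene that myeloma cells often delete together with its neighbour FAF1, had 0 reads in every sample. FAF1, whose start lies 0.478 kb away, DMRTA2 and C1orf185 were also at 0 reads throughout. Farther out, RNF11 had 1082 to 2161 reads and EPS15 had 1797 to 3597 reads per sample, and TTC39A had at most 5. Of the 6 protein-coding neighbours within 600 kb, 3 had at most 3 reads in every sample. CDKN1C (chromosome 11, 2883213 to 2885775), an imprinted gene, also had 0 reads, as did PHLDA2, another gene of that imprinted cluster. SLC22A18 had at most 3 reads there, whereas KCNQ1 had 69 to 135 and CD81 had 2502 to 4520 reads. Around CDKN1C, 7 of 13 neighbours had at most 3 reads in every sample.

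A listed 0 need not mean that a gene was silent. CDK7, a kinase gene that dividing cells need, was itself listed at 0 to 1 reads per sample. The number of DNA copies was not measured here, so a deletion and a lack of transcription cannot be told apart for CDKN2C and CDKN1C. Around CDKN2A, MTAP, the gene usually lost together with CDKN2A in tumours, had 2114 to 4480 reads, CDKN2A had 3730 to 8349, CDKN2B had 336 to 763 and DMRTA1 had 334 to 683 reads per sample, while the interferon genes on the far side of MTAP were at 0.

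**Figure D4:**
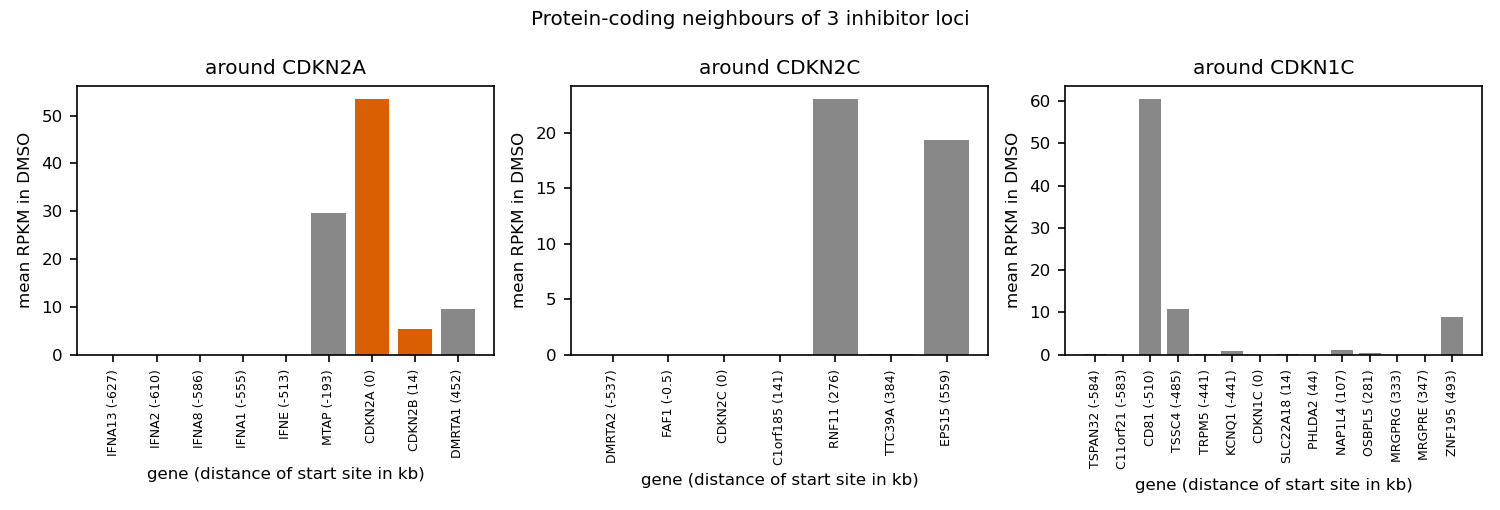
Mean RPKM in DMSO (vertical axis, from 0) of the protein-coding genes around CDKN2A, CDKN2C and CDKN1C, in order along the chromosome, with the distance of each start site from that of the named gene in kb in parentheses. Inhibitor genes are in orange. RNF11 at 23.1 RPKM and EPS15 at 19.3 RPKM stand beyond the empty stretch that holds FAF1 and CDKN2C, and MTAP stands at 29.6 RPKM beside CDKN2A.

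CDKN2A (chromosome 9, 21967752 to 21995301, minus strand) and CDKN2B (22002903 to 22009305, minus strand) are overlapped by the long noncoding RNA gene CDKN2B-AS1 (21994139 to 22128103, plus strand). Whether reads were counted by strand is not given in the sources used here, so reads of CDKN2B and of this antisense gene may not be fully separated. CDKN2B-AS1 had 89 to 174 reads per sample, fewer than CDKN2B in each condition. It was at 1.14, 0.982 and 1.35 RPKM in DMSO and at 1.01, 1.12 and 1.17 RPKM in AI-10-104, with a log2 fold change of -0.06 (SE 0.12, adjusted p = 0.802 in limma) where CDKN2B fell. In the combination against AI-10-104 its log2 fold change was 0.36 (SE 0.12), not called. Without AI-10-104 replicate 2 these values were -0.07 and 0.38, neither called. MTAP, on the other side of CDKN2A, was at 28.9 to 30.9 RPKM in DMSO and 28.4 to 31.1 RPKM in AI-10-104, with a log2 fold change of 0.01 (SE 0.05), or 0.04 without AI-10-104 replicate 2. In the combination against AI-10-104, MTAP had a log2 fold change of -0.15 (SE 0.05, adjusted p = 0.0753 in limma). Without AI-10-104 replicate 2 it was -0.18 (adjusted p = 0.0365 in limma), under the fold threshold.

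The kinases and cyclins that the inhibitors act on were measured beside them. Of 71 genes of the pathway (16 cyclins and kinases, 13 of the RB and E2F families, 18 that regulate or turn over the inhibitors, and 24 of the damage and stress response), 64 were tested and 7 were called in at least 1 of the 5 pairwise comparisons. The share of all genes tested that were called in at least 1 of the 5 was not counted. Counted by comparison, 0 were called with LEN against DMSO, 1 was higher with AI-10-104 against DMSO, and 2 were higher and 2 lower in the combination against DMSO, where 0.649%, 1.77% and 2.94% of all genes tested were called in either direction. In the combination, 1 was higher and 3 were lower against LEN, and 1 was higher against AI-10-104, where 1.68% and 3.63% of all genes were called. The median log2 fold change of the 64 genes was 0.01 with AI-10-104 against DMSO and 0.00 in the combination against AI-10-104, beside 0.01 and 0.02 over all genes tested.

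None of the INK4 targets was called. CDK4 was at 104 ± 5.48 RPKM in DMSO and 105 ± 2.93 RPKM in AI-10-104 (SD, n = 3 each), and CDK6 was at 55.6 ± 2.65 and 52.6 ± 1.99 RPKM (SD, n = 3 each). CDK2, the partner of cyclin E, was at 40.3 ± 0.399 RPKM in DMSO and 42.8 ± 0.273 RPKM in the combination (SD, n = 3 each). RB1, the brake that CDK4 and CDK6 release, was at 25.5 ± 1.19 RPKM in DMSO and 24.8 ± 0.177 RPKM in the combination, and its partner E2F1 was at 38.7 ± 0.326 and 40.5 ± 0.441 RPKM (SD, n = 3 each). Cyclin D2 (CCND2) was at 452 ± 12.9 RPKM in DMSO, 394 ± 38.5 RPKM with AI-10-104 and 459 ± 23.4 RPKM with both drugs (SD, n = 3 each). The log2 fold change of CCND2, 0.22 in the combination against AI-10-104, passed the adjusted p (0.0302 in limma) but not the fold threshold, and without AI-10-104 replicate 2 it was 0.30.

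Both cyclin E genes were called in the combination. CCNE1, the activator of CDK2 that p27 restrains, was at 22.3, 24.1 and 25.2 RPKM in DMSO and at 18.6, 16.9 and 19.5 RPKM in the combination. It fell in the combination by 0.37 on the log2 scale against DMSO (SE 0.06, adjusted p = 0.00503 in limma) and by 0.40 against LEN (adjusted p = 0.00548). CCNE2, at 2.21 ± 0.37 RPKM in DMSO and 3.14 ± 0.192 RPKM in the combination (SD, n = 3 each), rose by 0.50 (SE 0.11, adjusted p = 0.0207 in limma). CCNE2 had log2 fold changes of 0.42 with LEN and 0.36 with AI-10-104 against DMSO, neither called, and of 0.08 and 0.14 in the combination against LEN and against AI-10-104. With AI-10-104 alone CCNE1 had a log2 fold change of -0.31 (adjusted p = 0.0221 in limma), just short of the fold threshold. Without AI-10-104 replicate 2 these changes with AI-10-104 were -0.29 for CCNE1 and 0.43 for CCNE2, the latter called (adjusted p = 0.0423 in limma). The calls against DMSO were lost without combination replicate 2 for CCNE1 (-0.32) and without combination replicate 2 (0.49) or 3 (0.46) for CCNE2.

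Of the genes that regulate or turn over the inhibitors, 1 of 18 was called, in the combination against AI-10-104, where 3.63% of all genes tested were called. SKP2 and CKS1B, which together mark p27 for destruction, were at 27.0 ± 1.31 and 27.2 ± 0.194 RPKM in DMSO and 27.5 ± 1.47 and 28.6 ± 1.37 RPKM in the combination (SD, n = 3 each), and neither was called. CKS1B had a log2 fold change of 0.18 in the combination against AI-10-104 (SE 0.05). That value passed the adjusted p (0.0248 in limma) but not the fold threshold. MYC, which represses inhibitor genes, had a mean level of 208 ± 11.9 RPKM with DMSO and 179 ± 7.95 RPKM with LEN (SD, n = 3 each). With AI-10-104 it was 230 ± 10.3 RPKM, and with both drugs 209 ± 12.5 RPKM (SD, n = 3 each), with no call. BMI1, a Polycomb protein known as a repressor of CDKN2A, was the 1 regulator of 18 called. It was at 6.69, 10.5 and 7.0 RPKM in the AI-10-104 replicates and 11.97, 12.1 and 11.3 RPKM in the combination replicates. The log2 fold change of the combination against AI-10-104 was 0.57 (SE 0.14, adjusted p = 0.0208 in limma). Against DMSO, at 10.3 to 10.5 RPKM, AI-10-104 had a log2 fold change of -0.39 (SE 0.14, adjusted p = 0.13 in limma), and AI-10-104 replicate 2 again lay apart from replicates 1 and 3. Without it, BMI1 was called in both comparisons, at 0.78 and -0.59. The call against AI-10-104 was lost without AI-10-104 replicate 1 (0.45) or 3 (0.49), or combination replicate 1 (0.56) or 2 (0.55).

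CDKN1A was read beside the genes of the damage and stress response, of which 20 were tested. MDM2 was at 18.1 ± 1.27 RPKM in DMSO and 15.8 ± 0.431 RPKM in the combination (SD, n = 3 each), and was not called. Its log2 fold change of -0.19 (SE 0.05, adjusted p = 0.0461 in limma) passed the adjusted p but not the fold threshold. Where CDKN1A was called lower, in the combination against LEN, CCNG1 (-0.35, adjusted p = 0.00337 in limma), which encodes cyclin G1, and the ribonucleotide reductase subunit RRM2B (-0.36, adjusted p = 0.0041) were lower too. CCNG1 was at 127 ± 7.56 RPKM in LEN and 99.4 ± 1.83 RPKM in the combination, and RRM2B at 4.29 ± 0.059 and 3.33 ± 0.107 RPKM (SD, n = 3 each). With AI-10-104 alone against DMSO, RRM2B had a log2 fold change of -0.29 (adjusted p = 0.0127 in limma), just short of the fold threshold. Without AI-10-104 replicate 2 it was -0.28. In the combination against AI-10-104 the log2 fold change of RRM2B was -0.02. CCNG1 had -0.12 in both of these comparisons with all samples, not called. SESN2, a sestrin gene, was lower in the combination against DMSO (-0.36, adjusted p = 0.0457 in limma), a call lost without any of the DMSO or combination replicates, LEN replicate 1 or 3, or AI-10-104 replicate 1 (-0.42 to -0.26). The list held called genes in both directions, with 1 higher and 2 lower in the combination against LEN, 1 higher and 1 lower in the combination against DMSO, and 1 higher with AI-10-104 against DMSO. Only the genes called lower are named here, so the named genes do not stand for the list.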

How the data were processed

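Polyadenylated RNA of OPM-1 cells was sequenced in 12 samples, 3 per condition, grouped by their labels. The authors' notes name STAR, GRCh38, Cuffnorm and DESeq2, without their roles. The authors deposited RPKM values beside gene lengths, in which 28 gene names had become spreadsheet date numbers. The plan assumed FPKM. Values times gene length gave whole reads for 100% of values (tolerance 0.1 read), which served for read numbers and for limma's voom. Reads without molecular identifiers give counting error only, and depth limited CDKN1A most. Where at most 3 reads were present, a gene was taken as under the floor.

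The test was limma 3.58.1 (R 4.3.3, variance trend) on log2(RPKM + 0.1), over genes averaging 0.5 RPKM or more. A fold change on this scale understates the change of low genes. The interaction was called by adjusted p alone. Figures and tables used Python 3.11.15, pandas 2.3.3, numpy 2.4.6 and matplotlib 3.10.9. The fit was also run on simulated counts, whose outcome is not given here. Their spread beyond counting error was fixed and no replicate lay apart, so that run does not show how the fit behaves with these replicates. Gene coordinates were from GENCODE 44 and upstream sequences from RefSeq.

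The members and gene lists were chosen with earlier results of these data known, and the motifs, neighbour windows and CDK7 after values were seen. Named are all members, the pathway genes called in at least 1 pairwise comparison, a fixed set of pathway genes, MTAP, CDKN2B-AS1 and, per called member, the 3 most alike genes, except that some pathway genes are not reported here. Alternatives were pseudocounts of 1 and 0.01, other filters, median-ratio and quantile scaling, voom, the replicate block, no variance trend, other fold thresholds, the compared conditions alone and leaving out each sample. The plan chose limma because the deposited unit is a normalized one. Count models were not run on the recovered reads, for which voom was the test used. The study's other assays were not analysed here.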

Additional observations from a re-analysis of the deposited data

How the results depend on the processing

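Inhibitor genes called with AI-10-104 against DMSO numbered 1, and 0 with a pseudocount of 1, any RPKM above 0, a fold threshold of 1.5 or the compared conditions only, and 2 with the replicate block, voom on reads or no fold threshold. Against DMSO the combination had 0, and 1 (CDKN1A) with median-ratio rescaling, the replicate block, voom on reads or the compared conditions only. Against LEN it had 1, and 0 with a minimum mean of 1 RPKM, which CDKN1A does not reach, or any RPKM above 0. Against AI-10-104 it had 3, and 1 with a pseudocount of 1, any RPKM above 0 or the compared conditions only, and 0 with a fold threshold of 1.5. In that comparison CDKN2D was also not called with voom (adjusted p = 0.0578) or quantile normalization (log2 fold change 0.30). CDKN2A was not called with no variance trend (adjusted p = 0.0608 in limma), and CDKN1B was called as well with no fold threshold. With each sample left out in turn, the inhibitor genes called were 0 to 0 with LEN, 0 to 3 with AI-10-104, 0 to 1 for the combination against DMSO, 0 to 1 against LEN, 0 to 3 against AI-10-104 and 0 to 3 for the interaction. CDKN1A was not tested in the fit of the combination and AI-10-104 alone, where it was under the filter.

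Pathway genes called with LEN were 0, and 1 with voom or no fold threshold. For the pathway genes, changes of a count by a factor of 1.5 or less are not listed. With AI-10-104 they were 1, and 2 with median-ratio rescaling, 3 with voom and 6 with no fold threshold. For the combination they were 4 against DMSO, and 2 with any RPKM above 0, 12 with no fold threshold and 1 with a threshold of 1.5. Against LEN they were 4, and 12 and 0 with these thresholds. Against AI-10-104 they were 1, and 0 with any RPKM above 0, a threshold of 1.5 or the compared conditions only, 2 with quantile normalization and 9 with no fold threshold. Leaving out each sample gave 0 to 0, 1 to 4, 1 to 4, 4 to 6 and 0 to 2 in the same order.

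Of the log2 fold changes of single inhibitor genes, 719 kept their direction and side of the threshold, 35 lost a call, 13 gained one and 12 changed sign, each of the last near 0 and uncalled. CDKN3 with LEN ranged from -0.0102 (without LEN replicate 3) to 0.0397 and was also below 0 (-0.00864) without DMSO replicate 3. Against DMSO in the combination, CDKN1B ranged from -0.0206 to 0.0173, the latter without DMSO replicate 3. CDKN2A went to 0.00599 with quantile normalization and 0.00148 with voom, and ranged from -0.0226 to 0.0301 with a sample left out, above 0 without DMSO replicate 3 or combination replicate 2. CDKN2B went to -0.0128 with median-ratio rescaling and -0.0389 with quantile normalization, and ranged from -0.0343 to 0.11 with a sample left out, below 0 without DMSO replicate 1 or 2 or combination replicate 1. The cause of these shifts was not tested.

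Replicate numbers are shared between conditions in the labels, and nothing states that they pair the samples. Deviations from the condition means correlated at -0.03 to 0.16 between samples of the same number (mean 0.05, 18 pairs) and at a mean of -0.03 between different numbers (36 pairs). The deviations of a condition sum to 0, so the mean for different numbers largely follows from the other mean and is no separate observation. On average, 12 of 12 samples were closest to their own number, a hint from the data. With the replicate block, CDKN2A was called with AI-10-104 (-0.36, adjusted p = 0.0492 in limma) and CDKN1A in the combination against DMSO (-0.70, adjusted p = 0.0335), and no other call of an inhibitor gene changed.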

Other observations

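For each inhibitor gene called in a pairwise comparison, the other genes whose levels ran most alike over the 12 samples were listed by Pearson's r of log2(RPKM + 0.1), as a description. The samples share their conditions and, for AI-10-104, the replicate that lay apart by chi-square. The genes were picked from all those tested for their high r. For CDKN2A the highest values were those of BMI1 (r = 0.96), the splicing factor gene HNRNPM (0.95) and CLPTM1L (0.96). For CDKN1A they were STIL (0.94), a centriole assembly gene, FKBP5 (0.93), a cochaperone of steroid receptors, and CEP70 (0.92). For CDKN2B they were LRRFIP1 (0.94), LOC107987072 (0.93) and BAMBI (0.93), a decoy receptor of the TGF-beta family. For CDKN2D they were ZGPAT (0.97), the short-chain acyl-CoA dehydrogenase gene ACADS (0.95) and the mitochondrial ribosomal protein gene MRPS18C (0.95).

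The genes most like a member need not share the size of its change. STIL fell by 0.19 on the log2 scale in the combination against LEN (SE 0.05, adjusted p = 0.0497 in limma), where CDKN1A fell by 0.90. ZGPAT was higher by 0.25 in the combination against AI-10-104 (SE 0.06, adjusted p = 0.0212 in limma), where CDKN2D was higher by 0.35, and both STIL and ZGPAT stayed under the fold threshold.

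In AI-10-104 replicate 1, CDKN2A and BMI1 were 0.54 and 0.63 below their DMSO means on the log2 scale. Relative to the same means they were at -0.47 and -0.56 in replicate 3, and at -0.05 and 0.02 in replicate 2.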
